A study of Homo sapiens with 2 samples.

Results

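This account follows 35 genes of the response driven by ATF4, the transcription factor made when amino acids run short, in SW480, an established line of human colorectal adenocarcinoma cells. The genes were taken by symbol from a list of ATF4 partners and targets that uses no measured value in its rule but was drawn up with earlier results of these arrays known, so that the counts below do not come from a blind choice. Of the 35, 33 had a probe set (a group of array probes summarised to 1 value) that carried the gene's symbol alone, 35 probe sets in all among 33297 on the array. CBS and GPT2 had none and are not analysed here, though CBS has a probe set shared with another gene, given further on. A gene counted as measured when the higher of its 2 values reached 5.55, the median of all probe sets, and 30 members did, among 11548 measured genes. In these 30 both values lay above that median. ATF3, SLC7A3 and FGF21 were dim on both arrays.

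The study compared SW480 cells stably transfected with the TFAP2E coding sequence in the pTarget mammalian expression vector with SW480 cells carrying the vector alone, on 1 Affymetrix array each. Both lines had been kept in Geneticin, and single clones were picked from them and checked for TFAP2E. The labels do not say how many clones an array holds. With 1 array per group, a difference between clones and a difference between groups cannot be told apart. Levels are log2 values, and each difference is the value of the TFAP2E-labelled array less that of the vector control. With 1 array per group no difference has a replicate or a test, and the spread of all genes is the only scale: their differences had a median of 0.04 and a standard deviation of 0.219. The TFAP2E probe set itself read 6.81 against 6.77, a difference of 0.04, so that the introduced gene does not show in it and the directions rest on the labels.

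ATF4 protein is made when the translation factor eIF2 is phosphorylated, as happens in amino acid shortage and in stress of the endoplasmic reticulum. ATF4 pairs with C/EBP factors and raises genes that import amino acids, make them and charge tRNAs, and with DDIT3 it turns on feedback genes that restore translation or promote cell death. Much of ATF4's own control is at translation, which an RNA array does not read.

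The stress factors and the amino acid enzymes were mostly higher on the TFAP2E-labelled array, and the transporters were split. Of the 30 measured members 25 had a difference above 0, 4 lay below it and SLC7A1 was at 0, whereas 59.2% of all measured genes lay above 0. The members' median was 0.18 and that of all genes 0.04. The cysteine enzyme CTH, the stress factor DDIT3 and asparagine synthetase ASNS were at least 1.5-fold higher, 3 of 30 where 0.892% of all genes were. No member was 1.5-fold lower, against 0.606% of all genes, and none reached 2-fold in either direction, against 0.199%. Among the highest 10% of genes by difference stood 9 of the 30 members. Within 1 such standard deviation of 0 lay 17 of the 30 members and 73.6% of all genes.

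**Figure D1:**
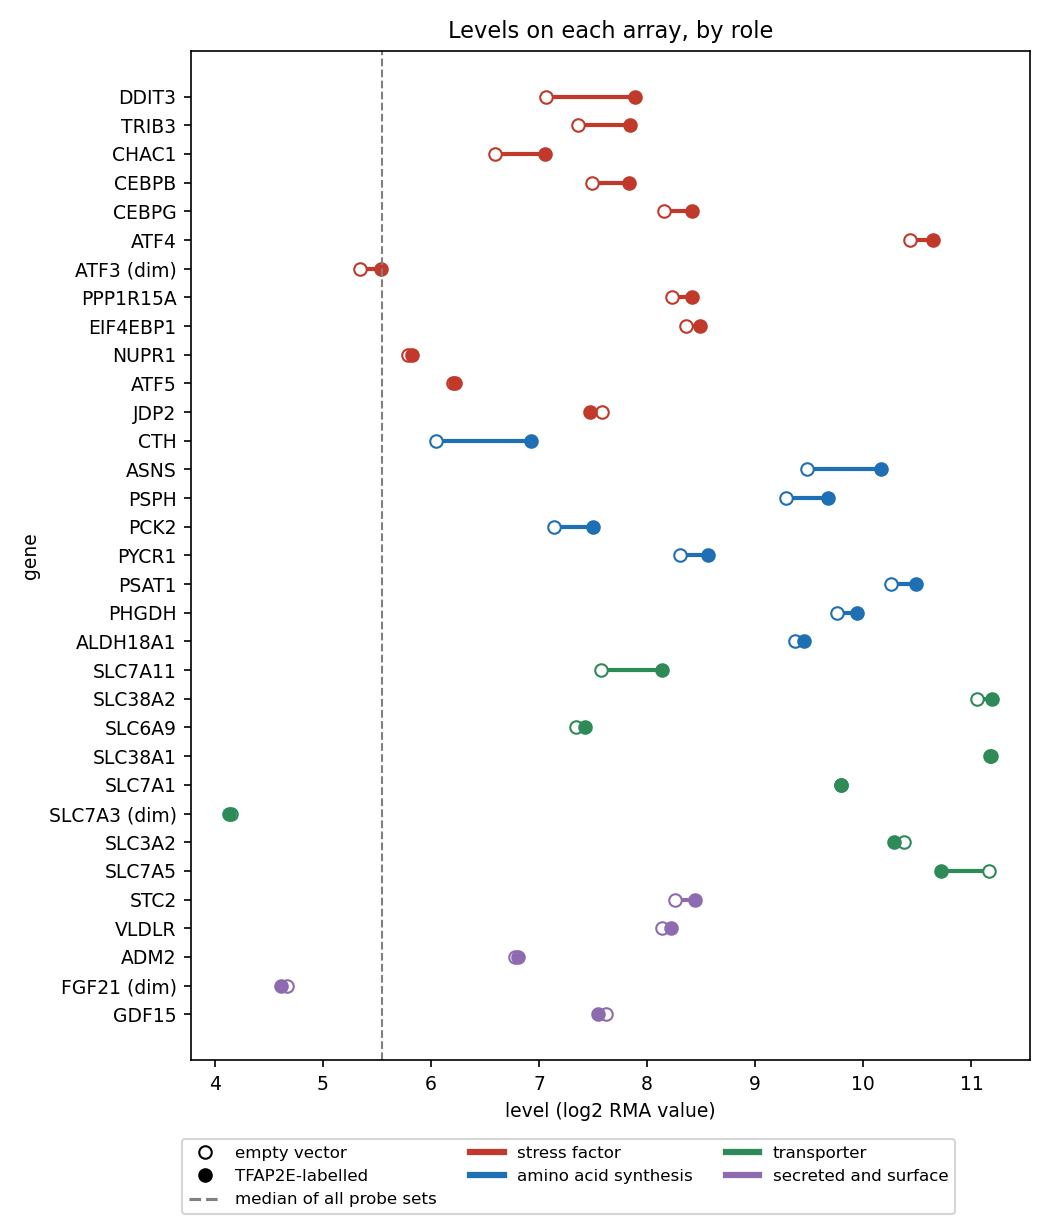
Log2 level of the 33 members with a probe set on the empty vector array (open circles) and the TFAP2E-labelled array (filled circles), 1 array each, coloured by role and ordered by difference within each role. The dashed line is the median of all probe sets, 5.55, below which ATF3, SLC7A3 and FGF21 lie on both arrays; the widest gaps to the right are those of CTH and DDIT3, and SLC7A5 has the widest gap to the left.

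Because the scatter between arrays changes with level, each member was also set beside the 500 genes nearest to it in mean level. Of the 30 members 6 lay above the central 95% of the differences of those genes, where 2.69% of all measured genes did. They were CTH, DDIT3, ASNS, SLC7A11, TRIB3 and CHAC1. SLC7A5 alone lay below that range, where 2.69% of all genes did too. The other 23 lay inside.

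**Figure D2:**
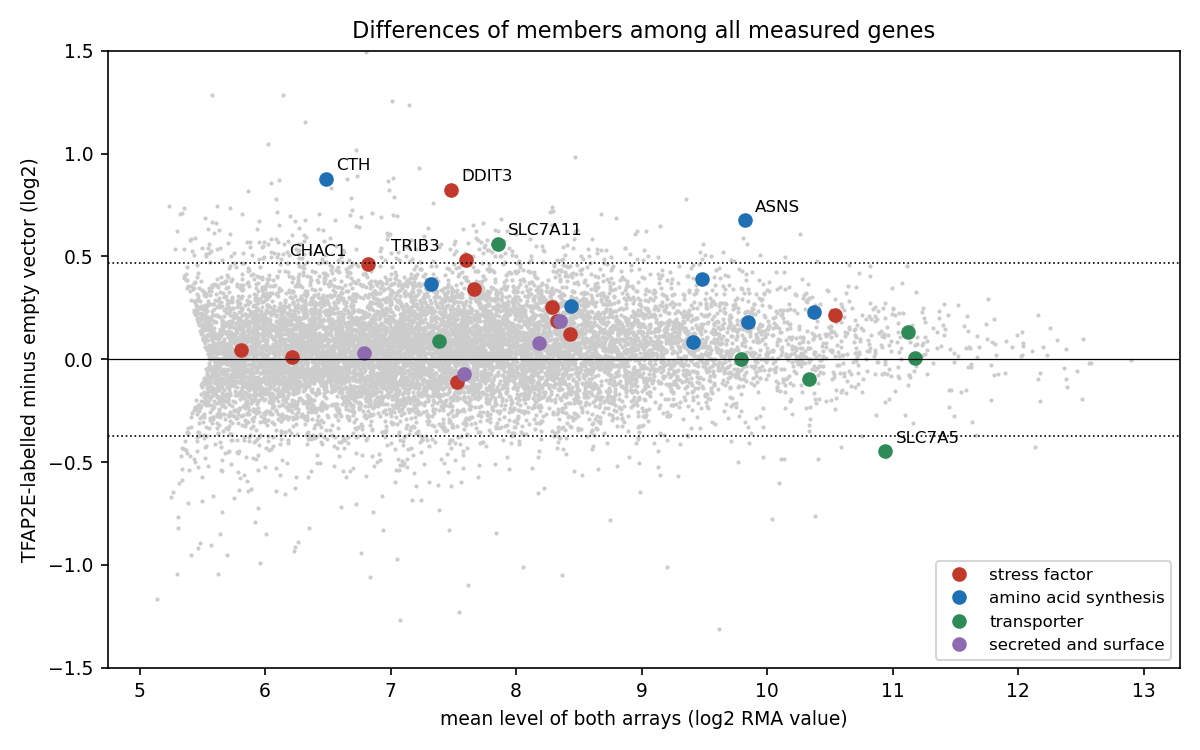
Difference between the arrays (TFAP2E-labelled minus empty vector, log2) against the mean level of both arrays for the 11548 measured genes (grey) and the 30 measured members (coloured by role). The dotted lines, at -0.37 and 0.47, hold 95% of all genes, 4 genes lie beyond the axis, and the 7 labelled members are those outside the range of genes of like level.

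DDIT3 (CHOP), the factor that ATF4 induces and then joins in prolonged stress, differed most among the 11 measured stress factors. It read 7.89 on the TFAP2E-labelled array against 7.07 on the control array, 1.77-fold higher (log2 difference 0.82). Counted from the most positive difference down, it ranked 22 of 11548 genes. TRIB3, a pseudokinase that binds ATF4 and dampens its activity, read 7.84 against 7.36, a difference of 0.48. CHAC1, an enzyme that breaks down glutathione and is induced through ATF4, read 7.05 against 6.59, a difference of 0.46. All 3 genes are known to act downstream of ATF4.

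ATF4 had a pair of probe sets that disagreed. The one used, with the higher values, read 10.64 against 10.43 (difference 0.21), and the other read 7.99 against 7.97 (difference 0.01). The mean of both was 0.11. The sources used here do not say which parts of the transcript they cover, and the ATF4 message therefore has no single value.

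The C/EBP partners of ATF4 were somewhat higher. CEBPB, which also answers to cytokines, read 7.83 against 7.49, a difference of 0.34 that put it in the highest 10% of genes. CEBPG, which has no activation domain of its own and forms dimers with ATF4, read 8.41 against 8.16, a difference of 0.26. Both stayed inside the range of genes of like level. The remaining regulators lay close to 0. ATF5, a relative of ATF4 with similar translational control, read 6.22 against 6.21, and the stress-induced chromatin protein NUPR1 read 5.83 against 5.78. JDP2, a repressor of the AP-1 family, was the only stress factor below 0, at 7.47 against 7.58 (difference -0.11). ATF3, the early stress repressor, was dim at 5.54 against 5.35, and its higher value missed the filter narrowly.

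Of the genes that act on translation, PPP1R15A (GADD34), which directs a phosphatase to eIF2 and so ends the response, read 8.42 against 8.23, a difference of 0.19. EIF4EBP1, which holds the cap-binding protein eIF4E inactive, read 8.49 against 8.36, a difference of 0.12. Both differences were within 1 standard deviation of the spread of all genes. Taken by role, the 11 measured stress factors had a median of 0.21, with 10 above 0 and 4 in the highest 10%.

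ATF4 and its C/EBP partners bind a composite element, and the promoters were searched for its core, TGATGNAA, on both strands (TTNCATCA on the other). RefSeq promoter windows (GRCh38.p14, 250 bases before to 50 after the gene start) matched 28 of the 35 members by symbol. The element's letters were found in 7 of the 28, or 25%, and in 3.67% of the 27305 promoters of the table. Among measured genes with a promoter window they were found in 5 of 25 members (20%) and in 145 of 9283 genes in all (1.56%). The members were listed as genes of this pathway, so that such a share is part of how they are known. Below are the 4 matches that lie wholly before the gene start, with the element in capitals and up to 40 bases on each side, 5′ to 3′ on the gene's strand. ASNS is shown as the member of this set with the largest difference, CHAC1 as the other one above the range of genes of like level, and ATF3 and FGF21 as the dim ones.
ASNS (chr7:97872429-97872516, minus strand): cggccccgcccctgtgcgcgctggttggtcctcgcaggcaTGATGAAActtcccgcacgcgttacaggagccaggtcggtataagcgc
CHAC1 (chr15:40953222-40953309, plus strand): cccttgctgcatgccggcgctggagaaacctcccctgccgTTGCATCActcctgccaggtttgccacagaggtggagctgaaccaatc
ATF3 (chr1:212565176-212565263, plus strand): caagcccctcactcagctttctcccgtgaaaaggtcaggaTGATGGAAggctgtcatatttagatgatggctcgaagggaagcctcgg
FGF21 (chr19:48755430-48755517, plus strand): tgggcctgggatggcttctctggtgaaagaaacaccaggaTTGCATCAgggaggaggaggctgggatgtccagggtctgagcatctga

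Counted from the gene start, the element began at -68 in ASNS, at -209 in CHAC1, at -191 in ATF3 and at -54 in FGF21. CHAC1 and FGF21 carried the same 8 letters, TTGCATCA, and the other pair differed from each other at the free base. In SLC38A1, SLC3A2 and SLC7A1 the match lay across or after the start. The cyclic AMP response element, TGACGTCA, was found in PPP1R15A alone among the members (1 of 28, 3.57%) and in 1.98% of all promoters, and it overlapped no match of the first element. The 5 measured members with a match had a median difference of 0.00, from -0.10 in SLC3A2 to 0.68 in ASNS, and the 20 without one had a median of 0.18. Of those 5, ASNS (0.68) and CHAC1 (0.46) carry it before the start, and the 3 with it across or after the start lay between -0.10 and 0.00. That split by position concerns these 5 genes only. It was not made for all genes and was not tested, and no conclusion is drawn from it. Among all measured genes the order was the other way, with a median of 0.08 for the 145 with a match and 0.05 for the 9138 without. No match says only that these letters are not in this window.

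All 8 measured enzymes of amino acid synthesis and linked carbon metabolism had differences above 0, with a median of 0.31, and 4 were in the highest 10% of genes. CTH, cystathionine gamma-lyase, which makes cysteine in the transsulfuration pathway, read 6.92 against 6.05. That is 1.84-fold (log2 difference 0.88), the largest of all members and rank 16 of 11548 genes counted from the most positive. ASNS, which makes asparagine from aspartate and glutamine, read 10.16 against 9.48, 1.60-fold higher (log2 difference 0.68, rank 56 by the same count). Its promoter window above holds the element in the form TGATGAAA.

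The 3 enzymes of the serine pathway had differences above 0, all inside the range of genes of like level. PHGDH, its first enzyme, read 9.94 against 9.76 (difference 0.18). PSAT1, the second, read 10.49 against 10.26 (difference 0.23). PSPH, the last, read 9.67 against 9.28 (difference 0.39), and its other probe set differed by 0.42. PSPH lies among genes that were themselves higher, as given further on. A PHGDH probe set shared with the gene MZT2B was not used, and it read 9.87 against 9.89, a difference of -0.02. The probe set that the enzyme gene CBS shares with LOC102724560, also not used, read 8.38 against 8.18, a difference of 0.21.

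Of the proline pathway, PYCR1, which carries out the last step, read 8.56 against 8.30, a difference of 0.26. ALDH18A1, which carries out the first steps, read 9.45 against 9.37, a difference of 0.08 and the smallest of the enzymes. PCK2, the mitochondrial phosphoenolpyruvate carboxykinase, read 7.50 against 7.14, a difference of 0.36 in the highest 10% of genes. The proline and PCK2 values all lay inside the range of genes of like level.

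The 7 measured transporters did not share the enzymes' shift. Their median was 0.00, with 4 above 0, 2 below and 1 at 0, and it became -0.03 with quantile normalization and with a loess trend removed. All 8 enzymes lay above the transporters' median, and 1 of the 7 transporters, SLC7A11, lay above the enzymes' median. The enzyme median exceeded the transporter median by 0.31 and the stress factor median by 0.10. With 1 array per group these contrasts have no test.

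SLC7A11, the light chain of the cystine-glutamate exchanger xCT, read 8.13 against 7.57, 1.48-fold higher (log2 difference 0.56, rank 127 from the most positive). SLC7A5 (LAT1), which carries leucine and other large neutral amino acids, went the other way, at 10.72 against 11.16, 1.36-fold lower (log2 difference -0.45). Only 1.45% of measured genes had a lower difference than SLC7A5. Both light chains reach the membrane bound to the same heavy chain, SLC3A2 (4F2hc), which read 10.28 against 10.38, a difference of -0.10.

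The other carriers were nearly level. SLC7A1, a cationic amino acid transporter, read 9.79 on both arrays, equal in every deposited digit, as was so for 159 of the 11548 genes. SLC38A1 and SLC38A2, which take up glutamine and other neutral amino acids together with sodium, differed by 0.00 and 0.13, at 11.18 against 11.18 and 11.19 against 11.06. SLC6A9, the glycine transporter GlyT1, read 7.43 against 7.34, a difference of 0.09. SLC7A3, another cationic transporter, was dim at 4.14 against 4.15.

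Among the secreted and surface products none passed 1.5-fold. STC2, a secreted glycoprotein induced by stress of the endoplasmic reticulum, read 8.44 against 8.25, a difference of 0.19. VLDLR, a lipoprotein receptor, read 8.22 against 8.14 (difference 0.08), and the peptide hormone ADM2 read 6.81 against 6.78 (difference 0.03). GDF15, a stress hormone of the TGF-beta family, read 7.55 against 7.62, a difference of -0.07. FGF21, a metabolic hormone that ATF4 can induce, was dim at 4.62 against 4.67. The 4 measured ones had a median of 0.05, about that of all genes.

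**Figure D3:**
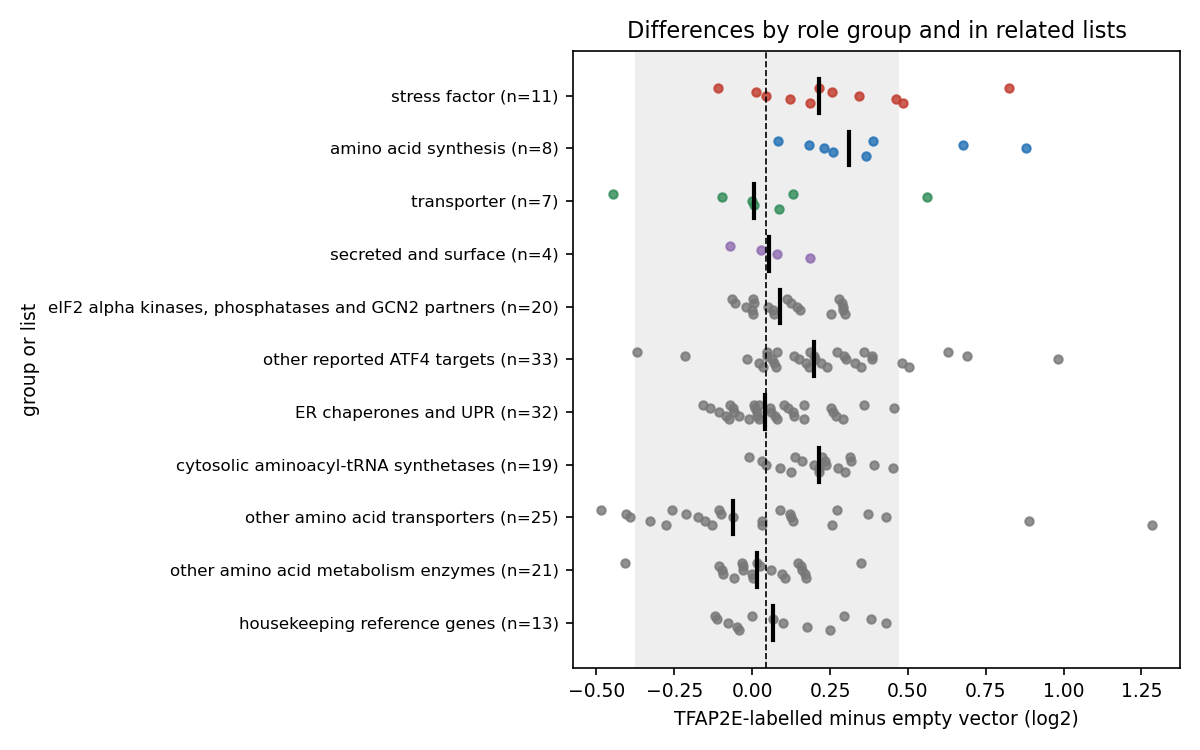
Difference between the arrays (log2) for each measured gene of the 4 role groups (coloured) and of the 7 related lists (grey), with the median of each as a black bar and n as the number of genes. The shaded band holds 95% of all measured genes and the dashed line is their median, 0.04; the enzyme median of 0.31 lies furthest right, and the median of the other amino acid transporters, -0.06, furthest left.

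Some members lie among neighbours that were themselves higher. For each member the median difference of up to 10 measured genes on each side along the chromosome was taken. Near a chromosome end there were fewer, 15 in all for TRIB3 and 13 for VLDLR. This median ranged from -0.09 to 0.33 and was above 0.1 for 4 of the 30 members, PSPH, ASNS, DDIT3 and CTH. The share of all genes with such a median above 0.1 was not counted. Over all genes the middle value of these neighbour medians was 0.04. The neighbours of PSPH on chromosome 7 had a median of 0.33, with 17 of 20 above 0, and PSPH exceeded that median by 0.06. Those of ASNS, also on chromosome 7, had a median of 0.21, and ASNS exceeded it by 0.47. DDIT3 exceeded its neighbours' median of 0.11 by 0.72, and CTH exceeded its own, also 0.11, by 0.77. SLC7A11 and CHAC1 had neighbours at 0.01 each. With the neighbours' median subtracted from every gene, the members' median became 0.12 in place of 0.18, while that of all genes became 0.00 in place of 0.04, and 22 of 30 members lay above 0, against 50% of all genes. Under that setting 2 members were at least 1.5-fold higher in place of 3, ASNS being the one below it. The share of all genes at least 1.5-fold higher was then 0.503% in place of 0.892%. What part the neighbourhood has in any member's value was not tested.

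**Figure D4:**
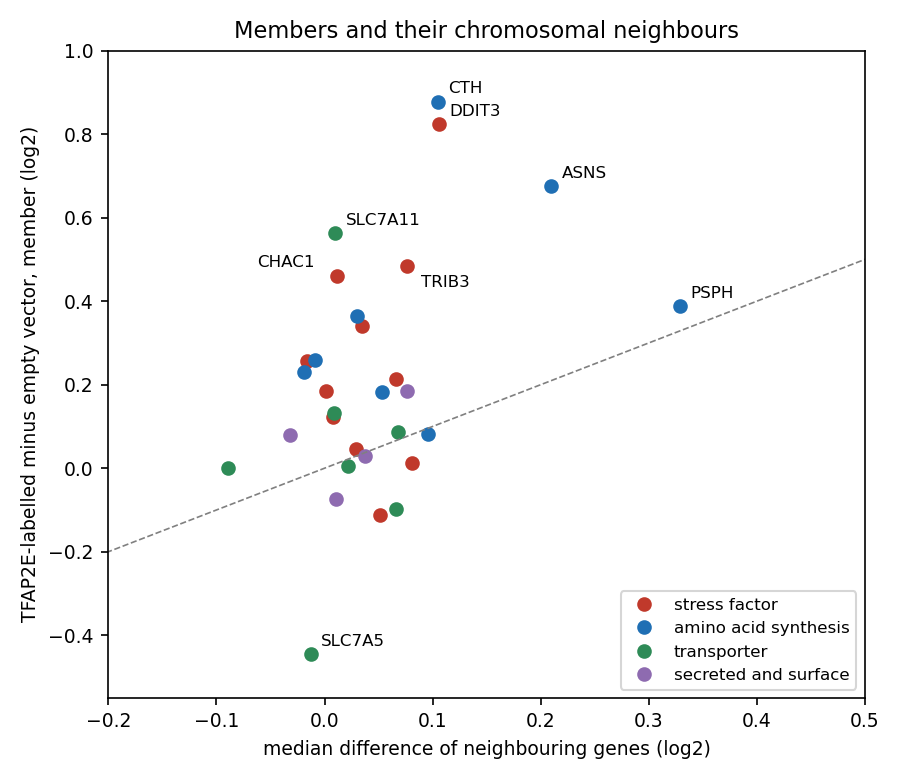
Difference between the arrays (log2) of each of the 30 measured members, coloured by role. The horizontal axis is the median difference of up to 10 measured genes on either side of each member on its chromosome. On the dashed line a member equals its neighbours: PSPH lies close to it at 0.39 against 0.33, and CTH and DDIT3 lie far above it.

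The related lists that follow, like the members, were chosen with earlier results of these arrays known. For scale, 59.2% of all measured genes lay above 0, 0.892% were at least 1.5-fold higher and 0.606% at least 1.5-fold lower. Upstream of ATF4, the 20 genes of the eIF2 kinases, their phosphatases and partners were all measured and close to level. Their median was 0.09, with 16 above 0 and none at 1.5-fold. The adaptor NCK1 (0.30) and the exchange factor subunit EIF2B3 (0.29) were highest, and PPP1R15B (-0.07) and EIF2B1 (-0.05) lowest. Of 33 other measured genes reported as ATF4 targets, 30 were above 0, against 59.2% of all genes. Their median of 0.20 was close to that of the members. DDIT4, an inhibitor of mTORC1, was highest at 0.98, before NIBAN1 (0.69) and TXNIP (0.63), and these 3 passed 1.5-fold, while SESN1 (-0.37) and ATG16L1 (-0.22) were lowest.

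Cytosolic aminoacyl-tRNA synthetases, which charge tRNAs and include several ATF4 targets, were above 0 in 18 of 19 measured cases, against 59.2% of all genes. Their median was 0.22. GARS1 (0.45) and VARS1 (0.39) were highest, HARS1 (-0.01) and TARS1 (0.03) lowest, and GARS1 has neighbours at 0.21. The chaperones and other genes of the endoplasmic reticulum arm had a median of 0.04, close to that of all genes, with 22 of 32 above 0. Its highest were the sensor ERN1 (0.45) and HERPUD1 (0.36), a gene also counted among the ATF4 targets, and its lowest MBTPS1 (-0.16) and OS9 (-0.13). No gene of either list passed 1.5-fold.

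Other enzymes of amino acid metabolism and other amino acid transporters had lower medians than the members (0.18), while the synthetases (0.22) did not. The transporters among the members themselves had a median of 0.00. The 21 other measured enzymes of amino acid metabolism had a median of 0.02 with 13 above 0, from SHMT1 (-0.41) and ALDH4A1 (-0.11) up to GLYCTK (0.17) and GOT1 (0.35). The 25 other measured amino acid transporters had a median of -0.06 with 12 above 0. The glutamate transporter SLC1A2, which was dim on the empty vector array (6.78 against 5.50, difference 1.28), and the y+L light chain SLC7A7 (0.89) passed 1.5-fold, and SLC16A10 (-0.49) and SLC7A4 (-0.41) were lowest. Housekeeping genes had a median of 0.07 over 13 measured, from B2M (-0.12) and POLR2A (-0.11) to PPIA (0.38) and TBP (0.43). The lists were not tested against each other.

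The arrays' identity was checked on markers. Of 12 epithelial markers 10 were measured, with a median of -0.09. Below 0 lay 8 of the 10, CDH1 at -0.71 included, and 4558 of all 11548 measured genes. VIL1, dim on the empty vector array at 4.94 against 6.22, was higher by 1.28. Of the fibroblast markers 6 of 9 were dim and of the endothelial ones 5 of 6. Of the leukocyte markers with a probe set 5 of 7 were dim, PTPRC among them. For scale, 6869 of all 18417 genes were dim. The measured leukocyte markers went both ways, CD68 by 0.57 and CD14 by -0.19. Of the measured fibroblast markers ACTA2 differed by 0.33, COL1A1 by 0.05 and COL1A2 by -0.09. The endothelial marker ENG differed by -0.002. What part any such shift has in the members' values was not tested. In bulk RNA of this kind, fewer cells in a given state and less RNA per cell cannot be told apart.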

How the data were processed

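RNA of 2 SW480 lines was measured on 1 array each. The authors deposited log2 expression values, and the submitters' processing notes name RMA as the tool; RMA draws arrays towards a common distribution, here with medians of 5.54 and 5.56, so a shift of all transcripts would largely be removed. The sources used here give neither its version nor a genome build. The number of arrays limits the precision. The platform annotation named the probe sets (19460 with 1 symbol, 1754 with several, 12083 with none), updated by Entrez identifier for 19429 in RefSeq (GRCh38.p14). For several probe sets of a gene the one with the highest mean was used. All 18417 genes were processed in Python 3.11.15 (pandas 2.3.3), and the filter left 11548. No test was possible. The scripts were tested on simulated data. The members and lists were chosen with earlier results of these data known. All 35 members are named, and of each related list the 2 highest, the 2 lowest and those past 1.5-fold. RefSeq order served to find neighbours.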

Additional observations from a re-analysis of the deposited data

How the results depend on the processing

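The members' counts and medians were recomputed with 3 other filters, with quantile normalization, with each array centred, without the loess trend, with probe sets averaged, with low values set to the 20th percentile and with the neighbours' median subtracted. In each of these the counts stayed within 1.5 times. The medians of all members and of the 4 role groups moved by under 0.219, 1 standard deviation over all genes. That limit exceeds each of these medians but the enzymes', so that staying within it says little. The stress factor median ranged from 0.17 to 0.23 and the enzyme median from 0.26 to 0.34. The transporter median ranged from -0.03 to 0.03, with a change of sign, and the secreted and surface median from 0.02 to 0.08. The members' median ranged from 0.12 to 0.21. The median of all genes, 0.04, ranged from 0.00 to 0.07. The count of members past the fold rule follows the threshold. At a log2 threshold of 0.32, 9 were higher and 1, SLC7A5, lower, and at 2-fold 0 were higher. The share of all genes past 0.32 was not counted. For scale, the highest 10% of all genes began at 0.30 and the lowest 2.5% ended at -0.37. Signs were the same in all settings for 25 of the 30 members. The other 5, ATF5, ALDH18A1, SLC7A1, SLC38A1 and ADM2, lie near 0. Of 270 member values 1 moved by over the standard deviation, that of PSPH with the neighbours' median subtracted (0.06 in place of 0.39). Many of the 270 could not move. The 3 other filters and the setting of low values left each member's difference as it was, and averaging altered only ATF4 and PSPH. Members that a filter dropped were still counted among the 270. ATF3 passed the filter with centring and with quantile normalization. No paired analysis was possible because there is only 1 array in a group. Values near or below 5.55 are least certain, and no difference has a replicate.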

Other observations

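Of the 6 members above the range of genes of like level, 3 handle cysteine or glutathione, a grouping made after their values were seen. CTH makes cysteine (difference 0.88), SLC7A11 imports cystine (0.56), and CHAC1 breaks glutathione down (0.46). What these genes have in common beyond that was not tested.

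Carriers of neutral amino acids outside the members went both ways. The glutamine carrier SLC1A5, named like the next 3 genes after its value was seen, read 11.35 against 11.63, a difference of -0.28, and SLC7A6, a light chain that also pairs with SLC3A2, read 8.24 against 8.50, a difference of -0.26. SLC38A5 (0.43) and SLC43A1 (0.27) were higher.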
